A study of Mus musculus with 17 samples.

Results

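The 6 genes described here are used as basophil and mast cell genes: Fcer1a and Ms4a2, the chains of the IgE receptor that bind IgE and amplify its signal, the granule proteases Mcpt8 and Cpa3, the transcription factor Gata2 and the surface receptor Cd200r3. They were chosen by name, with earlier results of these data known, so the counts of called members below are not independent of that choice. Every probe set (a set of short array probes for 1 transcript) whose only gene symbol in the platform annotation was one of them was taken. This gave 9 probe sets for 6 genes, out of 45037 probe sets other than controls on each of 17 Affymetrix arrays. All 9 passed the filter on dim probe sets, so all 6 genes were among the 14245 genes tested. Ms4a2, Gata2 and Cd200r3 each had a second probe set.

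Basophils and mast cells are granule-filled immune cells that bind IgE through a high-affinity receptor made of an IgE-binding alpha chain, a beta chain and a gamma chain shared with other receptors. Crosslinking of bound IgE starts a kinase cascade that releases histamine, proteases and lipid mediators. Basophils mature in the bone marrow, where they are rare, whereas mast cells leave as progenitors and mature in tissues. Mcpt8 marks mouse basophils, Cpa3 is made by both cell types, and Gata2 is also active in blood stem and progenitor cells.

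RNA came from sorted mouse bone marrow cells of femurs and tibias. Pig-a encodes an enzyme subunit needed to make the glycosylphosphatidylinositol (GPI) anchor that holds some proteins on the cell surface. Cells were stained with fluorescein-labelled antibodies to CD24, CD48 and Gr-1 and sorted by the loss or presence of these GPI-anchored markers; none of the 6 genes encodes one of them. Batch 1 held GPI-negative cells of Pig-a knock-out mice (3 arrays) and GPI-positive cells of Pig-a knock-out mice (3 arrays). Batch 2 held 3 groups. The knock-out-marrow recipients (4 arrays) were GPI-negative cells of C57BL/6 mice transplanted with Pig-a knock-out marrow. The wild-type-marrow recipients (3 arrays) were GPI-positive cells of C57BL/6 mice given wild-type marrow, and wild type (4 arrays) stands for GPI-positive cells of C57BL/6 mice without a transplant. The knock-out donor marrow had been kept with 10 nM aerolysin, a toxin that lyses GPI-normal cells, for 30 minutes, and those recipients had received 9 Gy of irradiation. The protocols do not state whether wild-type-marrow recipients were treated alike, and the labels do not name the allele or the deleter of the knock-out. Both cell groups of batch 1 came from Pig-a knock-out mice, and GPI-positive cells of those mice are the control for the GPI-negative ones. The titles call the arrays biological replicates without naming animals, and the p-values therefore describe only array-to-array spread, part of which may be technical.

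The deposited values were on a log10-like scale whose base was read from the values. They had been normalized separately in each batch, so groups were compared only within a batch. Piga itself (probe set 1427305_at) lay at 0.58 to 0.66 in knock-out GPI-negative and 1.15 to 1.32 in knock-out GPI-positive cells. It lay at 0.039 to 0.23 in knock-out-marrow recipients and 1.16 to 1.25 in the other batch 2 groups, and every GPI-negative array was thus below every GPI-positive array of its batch. Among bright probe sets the median SD was 0.064 log2 units in knock-out GPI-positive cells and 0.14 to 0.18 in the other groups. In the bulk RNA used here, fewer cells of a type and less RNA of a gene per cell cannot be told apart.

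The genes lie on 6 chromosomes of the mouse assembly GRCm38.p6, and all 6 symbols matched RefSeq. Fcer1a spans chr1:173221269-173227232, Ms4a2 chr19:11615517-11623790, Mcpt8 chr14:56082163-56085499 and Cpa3 chr3:20215616-20242209. Gata2 spans chr6:88193891-88207032 and Cd200r3 chr16:44943596-45058365. RefSeq windows of 250 bases before a transcript start were searched on both strands for GATAA, a form of the GATA motif that GATA factors such as the one encoded by Gata2 can bind. The motif was found for 4 of the 6 genes (Fcer1a, Ms4a2, Cpa3 and Cd200r3) and in 4 of their 7 windows, as Gata2 has a pair of windows; it occurs in 22.6% of all 32851 windows of that length. The STAT-type motif TTCNNNGAA was found in 0 of the 7 windows and in 7.0% of all windows. A match is a string of letters and not a measured binding site, and no array value bears on it.

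Upstream sequence is shown for 3 genes that were raised in knock-out-marrow recipients and hold the GATAA motif, since these are the IgE receptor chains and a granule protease on which the results below turn. Bases inside the annotated gene were cut off; the RefSeq window of Mcpt8 lies wholly inside the annotated gene and is not shown. Capitals mark GATAA, or TTATC where the motif is on the opposite strand. The stretches are Fcer1a chr1:173227233-173227479, Ms4a2 chr19:11623791-11623969 and Cpa3 chr3:20242210-20242431, all on the minus strand and read 5′ to 3′ from RefSeq (GRCm38.p6).
Fcer1a: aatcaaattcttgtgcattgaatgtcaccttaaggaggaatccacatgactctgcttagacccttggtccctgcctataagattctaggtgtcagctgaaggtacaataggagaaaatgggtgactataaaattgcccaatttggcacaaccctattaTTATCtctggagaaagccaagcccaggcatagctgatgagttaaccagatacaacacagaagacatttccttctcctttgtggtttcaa
Ms4a2: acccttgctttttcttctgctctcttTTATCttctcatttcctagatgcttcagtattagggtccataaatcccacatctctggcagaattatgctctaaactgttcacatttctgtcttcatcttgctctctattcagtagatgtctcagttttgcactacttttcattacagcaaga
Cpa3: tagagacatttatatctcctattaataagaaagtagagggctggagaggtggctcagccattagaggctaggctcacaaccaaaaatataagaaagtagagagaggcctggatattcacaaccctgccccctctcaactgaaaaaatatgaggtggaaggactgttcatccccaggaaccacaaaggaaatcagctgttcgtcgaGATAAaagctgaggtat
The Fcer1a match began 92 bases and the Cpa3 match 45 bases before the transcript start that RefSeq gives for the window. The Ms4a2 match shown began 224 bases before it.

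Fcer1a encodes the IgE-binding alpha chain of the receptor. In knock-out-marrow recipients, its deposited log10 values were 1.45, 1.68, 1.09 and 1.64 in replicates 1 to 4. They were 1.11, 1.16 and 1.15 in wild-type-marrow recipients, and 0.82, 0.62, 0.77 and 0.78 in wild type. In batch 1 they were 0.78, 0.83 and 0.91 in knock-out GPI-negative cells and 1.01, 1.08 and 1.06 in knock-out GPI-positive cells. In batch 2, 3 knock-out-marrow recipients lay above every other array, whereas replicate 3 lay below all wild-type-marrow recipients and above all wild-type arrays. In batch 1 the GPI-negative arrays all lay below the GPI-positive ones.

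Ms4a2 encodes the signal-amplifying beta chain. On its brighter probe set (1443264_at), knock-out-marrow recipients gave 1.17, 1.35, 1.09 and 1.61, wild-type-marrow recipients 0.93, 1.05 and 1.12, and wild type 1.02, 0.90, 1.02 and 1.05. Knock-out GPI-negative cells gave 0.94, 0.90 and 0.94, and knock-out GPI-positive cells 1.08, 1.08 and 1.05. Replicate 3 was again the lowest recipient of knock-out marrow, below the highest recipient of wild-type marrow, and all knock-out-marrow recipients lay above all wild-type arrays. The second probe set (1421475_at) gave 0.87, 0.91, 0.70 and 1.06 in knock-out-marrow recipients against 0.63, 0.63 and 0.72 in wild-type-marrow recipients. It gave 0.53, 0.34 and 0.45 in knock-out GPI-negative cells against 0.73, 0.74 and 0.71 in knock-out GPI-positive cells. The pair of probe sets therefore ordered the groups the same way in both of these comparisons.

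Mcpt8 encodes a basophil granule serine protease. Its values were 2.30, 2.51, 1.97 and 2.58 in knock-out-marrow recipients, 1.92, 1.84 and 1.98 in wild-type-marrow recipients, and 1.81, 1.61, 1.74 and 1.81 in wild type. They were 1.58, 1.61 and 1.68 in knock-out GPI-negative cells and 1.82, 1.75 and 1.77 in knock-out GPI-positive cells. In batch 2 the groups overlapped only where replicate 3 of the knock-out-marrow recipients fell among the wild-type-marrow recipients. In batch 1 the 2 groups did not overlap.

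Cpa3 encodes a granule carboxypeptidase. Its values were 1.52, 1.65, 1.43 and 1.78 in knock-out-marrow recipients, 1.29, 1.25 and 1.31 in wild-type-marrow recipients, and 1.07, 1.02, 1.08 and 1.08 in wild type. They were 1.17, 1.10 and 1.08 in knock-out GPI-negative cells and 1.20, 1.16 and 1.20 in knock-out GPI-positive cells. The 3 groups of batch 2 did not overlap, with replicate 3 lowest among the knock-out-marrow recipients but above every other array of the batch. The groups of batch 1 overlapped.

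Gata2 encodes a zinc-finger transcription factor of blood progenitors, basophils and mast cells. On its brighter probe set (1450333_a_at) the values were 0.85, 1.04, 0.86 and 1.19 in knock-out-marrow recipients, 0.76, 0.78 and 0.85 in wild-type-marrow recipients, and 0.83, 0.65, 0.84 and 0.79 in wild type. They were 0.99, 1.03 and 1.06 in knock-out GPI-negative cells and 0.98, 0.84 and 0.88 in knock-out GPI-positive cells. Gata2 was the one member for which every knock-out GPI-negative array lay above every GPI-positive array. Its second probe set (1428816_a_at) did not show this, at 0.82, 0.73 and 1.03 against 0.84, 0.87 and 0.82. On that probe set knock-out-marrow recipients ranged from 0.77 to 0.91, wild-type-marrow recipients from 0.67 to 0.80 and wild type from 0.63 to 0.74.

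Cd200r3 encodes an activating receptor of the CD200 receptor family found on basophils and mast cells. On its brighter probe set (1453813_at) the values were 0.65, 0.80, 0.35 and 0.83 in knock-out-marrow recipients, 0.54, 0.45 and 0.42 in wild-type-marrow recipients, and 0.52, 0.35, 0.41 and 0.44 in wild type. They were 0.40, 0.38 and 0.38 in knock-out GPI-negative cells and 0.50, 0.48 and 0.51 in knock-out GPI-positive cells. Replicate 3 of the knock-out-marrow recipients was the lowest array of batch 2, and the other 3 recipients were the highest. The array medians were 0.515 in batch 1 and 0.387 in batch 2. On this probe set the mean percentile of Cd200r3 on an array was 34.6 in knock-out GPI-negative cells and 65.5 in knock-out-marrow recipients. The other groups lay at 48.3 to 56.9. Its second probe set (1430645_at) was dimmer, from 0.061 to 0.478 over the 17 arrays. On it knock-out-marrow recipients were all above wild-type-marrow recipients (log2 difference 0.74 ± 0.21, limma adjusted p = 0.0540), but knock-out GPI-negative and GPI-positive cells overlapped (0.03 ± 0.23, 0.946).

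**Figure D1:**
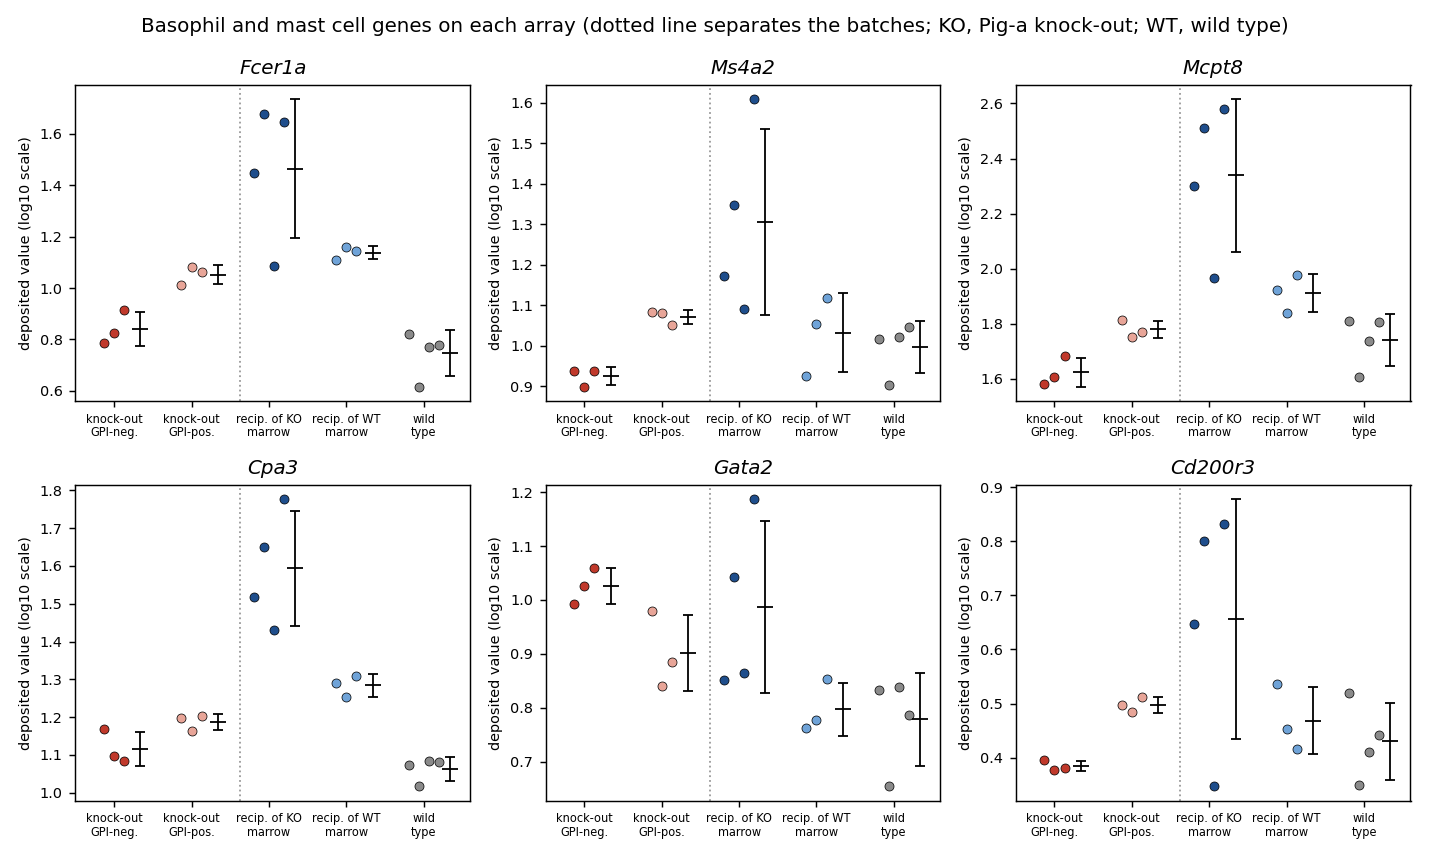
Deposited value (log10 scale) of the brighter probe set of each gene on each of 17 arrays, by group (recip., recipients; KO, Pig-a knock-out; WT, wild type); points are arrays in replicate order and bars are mean ± SD. Knock-out-marrow recipients spread most, from 1.09 to 1.68 for Fcer1a, with replicate 3 the lowest of the 4 for every gene except Gata2.

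Knock-out-marrow recipients against wild-type-marrow recipients compare transplanted GPI-negative with transplanted GPI-positive cells. Both IgE receptor chains and both proteases were higher in the GPI-negative cells. Mcpt8 was 2.67-fold higher (log2 difference 1.42 ± 0.30, standard error (SE) from limma, a linear model over all genes), and Cpa3 2.04-fold higher (1.03 ± 0.18). Fcer1a was 2.12-fold higher (1.08 ± 0.29) and Ms4a2 1.87-fold higher (0.91 ± 0.26). Gata2 (0.63 ± 0.21) and Cd200r3 (0.63 ± 0.25) did not pass the test.

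In all, 4 of 6 members were called higher and 0 lower at a limma adjusted p under 0.05, beside 3.95% of all genes called higher and 3.45% lower. Adjusted p was 0.00496 for Mcpt8, 6.94e-04 for Cpa3, 0.0255 for Fcer1a, 0.0331 for Ms4a2, 0.0737 for Gata2 and 0.158 for Cd200r3. The median difference of the 6 was 0.97, beside -0.01 over all genes. The model pools the spread over groups, whereas Fcer1a had an SD of 0.90 log2 units in knock-out-marrow recipients and 0.09 in wild-type-marrow recipients. The exact permutation test of group means, two-sided, gave p = 0.0571 for Cpa3, 0.0857 for Mcpt8 and 0.143 for Fcer1a and Ms4a2, where 0.0286 is the smallest p that 4 against 3 arrays allow.

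The calls of Cpa3 and Mcpt8 held without each of the 7 arrays in turn, and those of the IgE receptor chains did not. Fcer1a lost its call without replicate 2 (0.85, limma adjusted p = 0.101) or 4 (0.88, 0.0978) of the knock-out-marrow recipients. It also lost it without replicate 1 (1.04, 0.0779), 2 (1.12, 0.0709) or 3 (1.10, 0.0773) of the wild-type-marrow recipients. Ms4a2 lost its call without replicate 2 (0.86, 0.0891) or 4 (0.57, 0.0784) of the knock-out-marrow recipients and without replicate 1 (0.73, 0.147) or 2 (0.94, 0.0842) of the wild-type-marrow recipients. The count of called members fell to 2 in these cases, other than without replicate 3 of the wild-type-marrow recipients, where 3 were called. Without replicate 3 of the knock-out-marrow recipients all 6 members were called, with Gata2 at 0.76 (limma adjusted p = 0.0332) and Cd200r3 at 0.97 (0.00105). Gata2 was also called without replicate 1 of that group (0.78, 0.0205).

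Knock-out-marrow recipients against untransplanted wild type compare GPI-negative cells after transplantation with the unmanipulated state; the knock-out-marrow recipients are the same arrays as above. All 6 members were higher. Fcer1a was 5.22-fold higher (log2 difference 2.39 ± 0.27), Mcpt8 3.96-fold (1.99 ± 0.28), Cpa3 3.39-fold (1.76 ± 0.16) and Ms4a2 2.04-fold (1.03 ± 0.24). Cd200r3 was 1.68-fold (0.75 ± 0.23) and Gata2 1.61-fold (0.69 ± 0.19) higher. Arrays of the groups did not overlap for Fcer1a, Ms4a2, Mcpt8, Cpa3 and Gata2, and Cd200r3 overlapped through replicate 3. The share of all genes that separate in this way was not counted.

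With the brighter probe set standing for each gene, the count was thus 6 of 6 members higher, beside 6.84% of all genes called higher and 5.55% lower. The second Cd200r3 probe set (1430645_at) was not called (0.42 ± 0.20, limma adjusted p = 0.237) and overlapped between the groups. The second probe sets of Ms4a2 (0.87 ± 0.18, 0.00316) and Gata2 (0.62 ± 0.17, 0.0217) were called higher. Limma adjusted p was 5.29e-07 for Cpa3, 7.10e-06 for Fcer1a, 6.58e-05 for Mcpt8, 0.00604 for Ms4a2, 0.0202 for Gata2 and 0.0373 for Cd200r3. The exact permutation p was 0.0286, the smallest that 4 against 4 arrays allow, for the 5 genes without overlap and 0.143 for Cd200r3. Gata2 lost its call without replicate 2 (0.63, limma adjusted p = 0.0631) or 4 (0.47, 0.0889) of the recipients and without wild-type replicate 2 (0.55, 0.0854). Cd200r3 lost it without recipient replicate 1 (0.76, 0.0615), 2 (0.59, 0.141) or 4 (0.56, 0.154) and without wild-type replicate 2 (0.66, 0.114), 3 (0.73, 0.0849) or 4 (0.77, 0.0707). With each batch fitted alone Cd200r3 was not called either (limma adjusted p = 0.0652). The calls of Fcer1a, Ms4a2, Mcpt8 and Cpa3 held without each of the 8 arrays in turn.

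Wild-type-marrow recipients against untransplanted wild type compare GPI-positive cells with and without transplantation; each group also served in one of the comparisons above. Fcer1a was 2.46-fold higher in the recipients (1.30 ± 0.29, limma adjusted p = 0.0385). This was 1 of 6 members called higher and 0 lower, beside 0.449% of all genes called higher and 0.393% lower. Cpa3 lay just outside the threshold (0.73 ± 0.18, limma adjusted p = 0.0501) and Mcpt8 further out (0.57 ± 0.30, 0.411). For these 3 genes every recipient array lay above every wild-type array (exact permutation p = 0.0286, the smallest possible). The share of all genes that do so was not counted. Ms4a2 (0.12 ± 0.26), Gata2 (0.06 ± 0.21) and Cd200r3 (0.13 ± 0.25) overlapped between the groups. The call of Fcer1a was lost without any 1 of the 7 arrays: without replicates 1, 2 and 3 of the recipients the difference was 1.35, 1.27 and 1.29 (limma adjusted p = 0.114, 0.117 and 0.0946). Without wild-type replicates 1, 2, 3 and 4 it was 1.38, 1.16, 1.33 and 1.34 (0.0776, 0.107, 0.0669 and 0.0738).

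Knock-out GPI-negative against GPI-positive cells compare cells with and without the anchor from Pig-a knock-out mice, without transplantation. None of the 6 members passed the test, and 5 of 6 had lower mean values in GPI-negative cells. The log2 difference was -0.70 ± 0.31 for Fcer1a, -0.49 ± 0.27 for Ms4a2, -0.51 ± 0.32 for Mcpt8, -0.24 ± 0.19 for Cpa3 and -0.38 ± 0.27 for Cd200r3. Gata2 differed by 0.41 ± 0.22. The second Ms4a2 probe set, in the fit over all kept probe sets, gave -0.95 ± 0.21 (limma adjusted p = 0.00157).

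Limma thus called 0 of 6 members in either direction, beside 14.8% of all genes called higher and 14.8% lower; 1 member (Fcer1a) had an unadjusted p under 0.05. The limma adjusted p was 0.104 for Fcer1a, 0.200 for Ms4a2, 0.254 for Mcpt8, 0.386 for Cpa3, 0.176 for Gata2 and 0.326 for Cd200r3. For Fcer1a, Ms4a2, Mcpt8 and Cd200r3 all GPI-negative arrays lay below all GPI-positive arrays, and for Gata2 above, each with exact permutation p = 0.1, the smallest that 3 against 3 arrays allow. How many of all genes separate in this way was not counted. The fit pools the spread of all 5 groups; with batch 1 fitted alone, Fcer1a, Ms4a2 and Mcpt8 were called lower (limma adjusted p = 0.00468, 0.00646 and 0.00894). Beside these values, the Gapdh 3′ minus 5′ probe difference was -0.16 ± 0.13 (SD, n = 3) log2 units in GPI-negative and -1.02 ± 0.02 (n = 3) in GPI-positive cells. The mean of the hybridisation controls was 8.57 and 6.63 log2 units in these groups. The part of RNA quality or labelling in the member differences was not tested. Between the transplanted groups the Gapdh measure overlapped, at -0.68 ± 0.30 (n = 4) for knock-out-marrow recipients and -0.63 ± 0.22 (n = 3) for wild-type-marrow recipients. Untransplanted wild type had a lower mean than both, -0.925 ± 0.054 (n = 4), with a range of -0.96 to -0.84. The part of this measure in the comparisons with wild type was not tested.

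**Figure D2:**
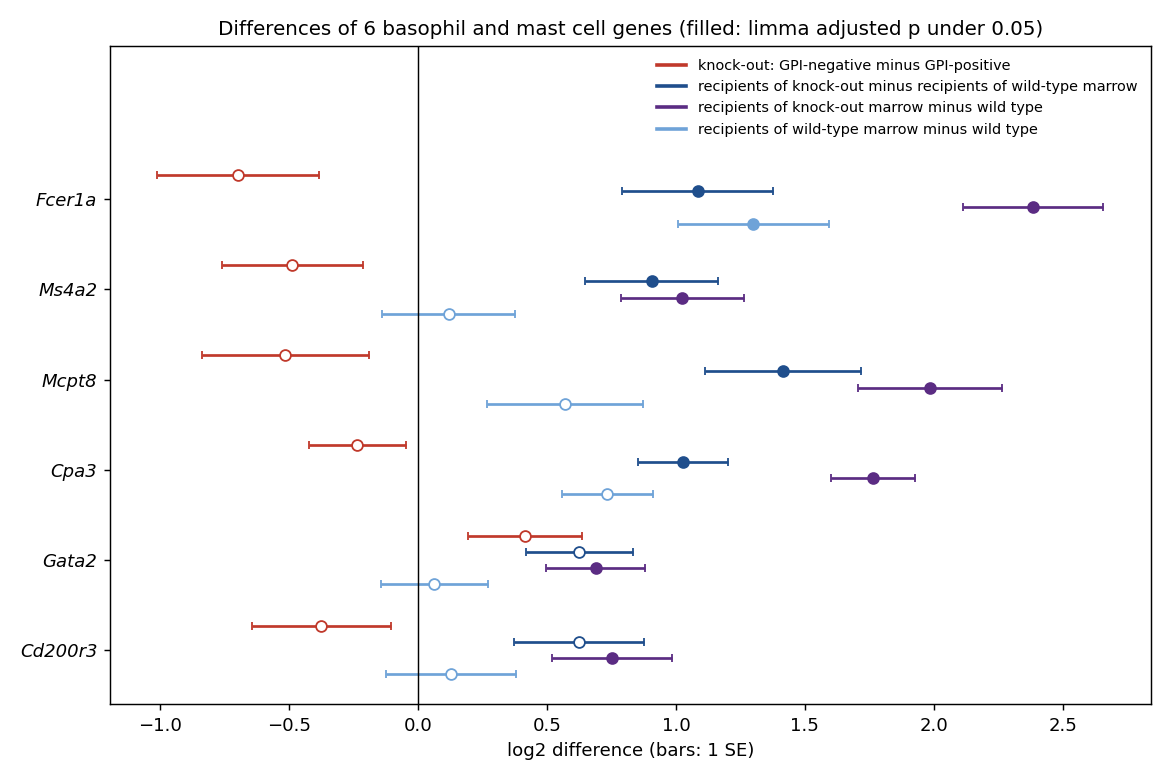
Log2 difference of each gene in the 4 comparisons, with bars of 1 SE; filled points have a limma adjusted p under 0.05, and the comparisons of batch 2 share arrays. Differences within knock-out mice lie below 0 for 5 genes and are all open, whereas those of knock-out-marrow recipients lie above 0, up to 2.39 for Fcer1a.

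The difference between GPI-negative and GPI-positive cells was itself compared between knock-out mice and recipients, using 4 groups with no array in common. The knock-out difference minus the recipients' difference was -1.78 ± 0.43 for Fcer1a, -1.39 ± 0.38 for Ms4a2, -1.93 ± 0.44 for Mcpt8, -1.26 ± 0.26 for Cpa3, -1.0 ± 0.37 for Cd200r3 and -0.21 ± 0.30 for Gata2. Limma called 4 of 6 members lower, beside 9.96% of all genes called lower and 9.04% higher; the adjusted p was 0.0626 for Cd200r3. Cd200r3 was called too without replicate 3 of the knock-out-marrow recipients (-1.34, limma adjusted p = 6.79e-04). The 2 differences were measured in different batches and with unlike controls, GPI-positive cells of knock-out mice and GPI-positive cells of wild-type-marrow recipients. Transplantation, aerolysin, irradiation, the genotype of the control and batch cannot be told apart here. With the 3 tightly spread knock-out GPI-positive arrays averaged into 1, Mcpt8 and Cpa3 stayed called and Fcer1a (limma adjusted p = 0.0628) and Ms4a2 (0.1) did not.

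The members varied together within batch 2. Over its 11 arrays, the Pearson correlation between pairs of members ranged from 0.80 for Fcer1a with Gata2 to 0.97 for Ms4a2 with Gata2 and for Fcer1a with Cpa3. These are descriptions over arrays that share groups and normalization. The mean of the 6 batch-centred log2 values was 0.55, 1.16, -0.08 and 1.49 in knock-out-marrow recipients, -0.22, -0.22 and -0.06 in wild-type-marrow recipients, and -0.48, -0.99, -0.60 and -0.55 in wild type. Replicate 3 of the knock-out-marrow recipients thus lay among the wild-type-marrow recipients in these genes. In the 6 arrays of batch 1, Gata2 ran against the other 5 genes, with correlations of -0.54 to -0.79. The other pairs of batch 1 correlated at 0.53 to 0.96.

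The 6 other genes whose batch-centred log2 values over 17 arrays were most like the members' mean were Stx3 (Pearson correlation 0.93), Stxbp6 (0.92), Tmem171 (0.92), Abca9 (0.91), Tmem106a (0.91) and Rufy1 (0.91), out of 14239 ranked. Stx3 encodes a syntaxin of membrane fusion, Stxbp6 a syntaxin-binding protein and Abca9 a membrane transporter. These genes were picked for their likeness over the same arrays, so their differences are a description and are given without p-values. Knock-out-marrow recipients minus wild type was 0.97 for Stx3, 0.90 for Stxbp6 and 0.85 for Abca9 on the log2 scale, and knock-out GPI-negative minus GPI-positive cells -0.23, -0.36 and -0.08. For single members, the closest genes were Niban2 for Fcer1a (0.93), Abca9 for Ms4a2 (0.91), Stxbp6 for Mcpt8 (0.93) and Pros1 for Cpa3 (0.94). They were Acvr1 for Gata2 (0.84) and Tmem171 for Cd200r3 (0.88).

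Fcer1g, the gamma chain of the IgE receptor that other Fc receptors of myeloid cells also use, fell in knock-out GPI-negative cells (-0.93 ± 0.13, limma adjusted p = 1.04e-05). Its deposited values were 2.34 to 2.43 there and 2.66 to 2.69 in GPI-positive cells. It did not pass between recipients (0.39 ± 0.12, limma adjusted p = 0.0531). Of 19 listed signalling genes, 18 were tested, since Lyn had no probe set of its own symbol alone.

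In knock-out GPI-negative cells 5 of the 18 rose and 5 fell, beside 14.8% of all genes in each direction. Their median was -0.06, beside -0.01 over all genes. Lat (3.0 ± 0.21) and Fyn (2.61 ± 0.14), an adaptor and a kinase that T cells also use, rose most, together with Plcg1, Pik3cd and Inpp5d. Fcer1g, Plcg2, Grb2, Gab2 and Orai1 fell. The calls of Plcg2 (limma adjusted p = 0.131) and Gab2 (0.0709) were lost with the GPI-positive arrays averaged into 1, and that of Inpp5d with the mean of its probe sets (0.22, 0.163). Between recipients 4 rose and 0 fell, beside 3.95% and 3.45% of all genes: Lat (1.24 ± 0.20), Fyn (1.23 ± 0.13), Lat2 (0.90 ± 0.19) and Pik3cd (0.41 ± 0.12). The median was 0.21, beside -0.01 over all genes. Lat2 is the adaptor related to Lat in mast cells, B cells and myeloid cells. The call of Pik3cd was lost without recipient replicate 2 (0.34), 3 (0.40) or 4 (0.39) of the knock-out group and without replicate 1 (0.42), 2 (0.44) or 3 (0.37) of the wild-type group, at limma adjusted p = 0.0887 to 0.173. Markers of T or NK cells rose beside these genes, 5 of 5 in knock-out GPI-negative cells and 5 of 5 between recipients. Their mean log2 level was 5.81 to 5.94 against 1.64 to 1.88 in knock-out mice and 3.37 to 4.7 against 1.71 to 2.22 in recipients. Their part in the signalling list was not tested. Knock-out-marrow recipients against wild type gave 4 of the 18 signalling genes higher and 1 (Grb2) lower, beside 6.84% and 5.55% of all genes. Grb2 lost its call without recipient replicate 1 (-0.31, limma adjusted p = 0.0674) or 2 (-0.35, 0.0591) or wild-type replicate 1 (-0.33, 0.0754) or 4 (-0.35, 0.0638). With the mean of probe sets neither Grb2 (-0.25, 0.111) nor Pik3cd (0.18, 0.194), 1 of the 4, was called.

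Of 28 other effector and surface genes of basophils and mast cells, 18 were tested; Prss34, Il1rl1, Cd63 and Mrgprb2 had no probe set of their own symbol alone and the other 6 did not pass the filter on dim probe sets. In knock-out GPI-negative cells 7 fell and 1 (Cd200r4) rose, beside 14.8% of all genes in each direction. The median was -0.27, beside -0.01 over all genes. Hdc, which makes histamine, fell by 1.12 ± 0.23 on the log2 scale (limma adjusted p = 7.64e-04), and Alox5 and Alox5ap, which start leukotriene synthesis, fell by 0.90 ± 0.15 and 0.68 ± 0.14. Csf2rb, the shared beta chain of the IL-3 receptor, fell by 0.86 ± 0.19. Srgn, Hpgds and Cd200r1 fell by 0.33, 0.66 and 0.47. Hpgds was dim, at mean percentiles on an array of 15.4 in GPI-negative and 39.7 in GPI-positive cells. With the GPI-positive arrays averaged into 1, the calls of Srgn (limma adjusted p = 0.221), Hpgds (0.133), Csf2rb (0.0648) and Cd200r1 (0.15) were lost, so that Hdc, Alox5 and Alox5ap were left of the 7, and that of Cd200r4 (0.193) was lost too. Without replicate 2 of the GPI-negative arrays Srgn (-0.30, limma adjusted p = 0.0502), Hpgds (-0.45, 0.0877) and Cd200r1 (-0.35, 0.0579) were not called. Srgn was also not called without GPI-negative replicate 3 (-0.27, 0.0732) or GPI-positive replicate 1 (-0.32, 0.0624). Hpgds was not called without GPI-positive replicate 2 (-0.52, 0.0832) or with each batch fitted alone (0.0959). Cd200r4 lost its call without replicate 3 of the GPI-negative (0.44, 0.127) or 2 of the GPI-positive arrays (0.51, 0.103).

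Between recipients 3 of the 18 rose and 0 fell, beside 3.95% and 3.45% of all genes. The median was 0.15, beside -0.01 over all genes. Csf2rb2, the IL-3-specific form of that beta chain, was 0.72 ± 0.16 higher and Cd200r4, an activating relative of Cd200r3, 0.77 ± 0.18 higher. Both calls were lost without replicate 3 of the wild-type-marrow recipients (0.51, limma adjusted p = 0.0610, and 0.73, 0.0569). Alox5ap was 0.49 ± 0.13 higher, and lost its call without replicate 2 (0.47), 3 (0.43) or 4 (0.46) of the knock-out-marrow recipients and without replicate 2 (0.49) or 3 (0.42) of the wild-type-marrow recipients, at limma adjusted p = 0.0652 to 0.123. Hdc differed by 0.51 ± 0.21 (limma adjusted p = 0.182). Knock-out-marrow recipients against wild type gave 5 higher (Il6, Il3ra, Csf2rb, Csf2rb2 and Cd200r4) and 0 lower, beside 6.84% and 5.55% of all genes. Without replicate 2 of those recipients Il3ra (0.31, limma adjusted p = 0.117), Csf2rb (0.45, 0.118) and Cd200r4 (0.51, 0.0544) were not called, which left 2. Il3ra was also not called without recipient replicate 4 (0.34, 0.0994) or wild-type replicate 1 (0.30, 0.122) or 2 (0.38, 0.0677), nor Csf2rb without recipient replicate 4 (0.52, 0.0878) or wild-type replicate 2 (0.53, 0.0794) or 4 (0.50, 0.0977). Wild-type-marrow recipients against wild type gave 0 in either direction with 3 of 18 at an unadjusted p under 0.05. Of all genes, 0.449% were called higher and 0.393% lower there.

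Mast cell genes were set beside the members. The 4 tested mast cell markers were Kit, the stem cell factor receptor, the chymase Cma1 and the tryptases Tpsb2 and Tpsab1. Limma called 0 of 4 in any of the 4 comparisons. Of all genes, 0.393% to 14.8% were called in a given direction of these comparisons. At an unadjusted p under 0.05 there was 1 marker between recipients and 1 between wild-type-marrow recipients and wild type. Cma1, Tpsb2 and Tpsab1 lay between 0.155 and 0.527 on the deposited scale in all groups. Their group means lay below the array median in every group, from the 20.3rd percentile of an array for Tpsb2 in knock-out-marrow recipients to the 46.8th for Cma1 in knock-out GPI-negative cells. Kit, which stem and progenitor cells also express, was 0.94 to 1.04 in knock-out-marrow recipients and 1.03 to 1.13 in wild-type-marrow recipients (-0.36 ± 0.12, limma adjusted p = 0.0882). The mean log2 level of the 4 was 1.51 to 1.69 in knock-out-marrow recipients and 1.49 to 1.82 in wild-type-marrow recipients, so the groups overlapped.

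Eosinophils are another granulocyte type of the marrow, and their markers were set beside the members as well. In knock-out GPI-negative cells 5 of 5 tested eosinophil markers fell, from -0.68 for Il5ra to -3.04 for Prg2, the granule major basic protein. Il5ra and Ccr3 were dim in both groups. In GPI-negative and GPI-positive cells their mean percentiles on an array were 10.4 and 38.25 for Il5ra and 6.5 and 46.7 for Ccr3. Of all genes, 14.8% were called lower in those cells. The call of Il5ra was lost with the GPI-positive arrays averaged into 1 (limma adjusted p = 0.127). Their mean log2 level was 1.46 to 1.93 in GPI-negative and 3.12 to 3.28 in GPI-positive cells. Of 5 neutrophil markers 4 fell there, and 2 (Elane and Mpo) fell between recipients. Of all genes, 3.45% were called lower between recipients. Between recipients only Epx, eosinophil peroxidase, fell among the 5 (-1.27 ± 0.32, limma adjusted p = 0.0171), with mean levels of the list of 2.05 to 2.91 and 2.85 to 3.57. That call was lost without replicate 2 of the wild-type-marrow recipients (-1.05, limma adjusted p = 0.118).

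The mean levels of dendritic cell and macrophage markers did not overlap between GPI-negative and GPI-positive groups. Of all genes, 14.8% were called higher and 14.8% lower within knock-out mice, and 3.95% and 3.45% between recipients. Between recipients 3 of 4 dendritic cell markers (Siglech, Itgax and Ccr9) rose, with mean log2 levels of the list of 3.11 to 3.75 against 1.89 to 2.12. In knock-out GPI-negative cells 4 of 4 rose, at 4.26 to 4.36 against 2.50 to 2.57, although Flt3 was not called with the GPI-positive arrays averaged into 1 (limma adjusted p = 0.0578). Of 4 macrophage markers 3 (C1qa, C1qb and Vcam1) fell between recipients, with mean levels of 1.71 to 2.22 against 2.90 to 3.08. In knock-out GPI-negative cells 4 of 4 fell, at 1.51 to 1.60 against 2.83 to 2.88, although Adgre1 was not called with that averaging (0.134) or without GPI-negative replicate 2 (-0.46, 0.05004). Between recipients limma called 0 of 3 B cell, 0 of 5 megakaryocyte and 0 of 5 stem or progenitor markers, with 0, 2 and 1 at an unadjusted p under 0.05. Against wild type, knock-out-marrow recipients had 5 of 5 T or NK cell and 3 of 4 dendritic cell markers higher and 0 lower. Of erythroid markers 4 of 4, and of macrophage markers 3 of 4, were lower there and 0 higher. Each other marker list set beside the members had at most 1 call there. Of all genes, 6.84% were called higher and 5.55% lower. The part of these cell types, and of other granulocytes, in the member differences was not tested.

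**Figure D3:**
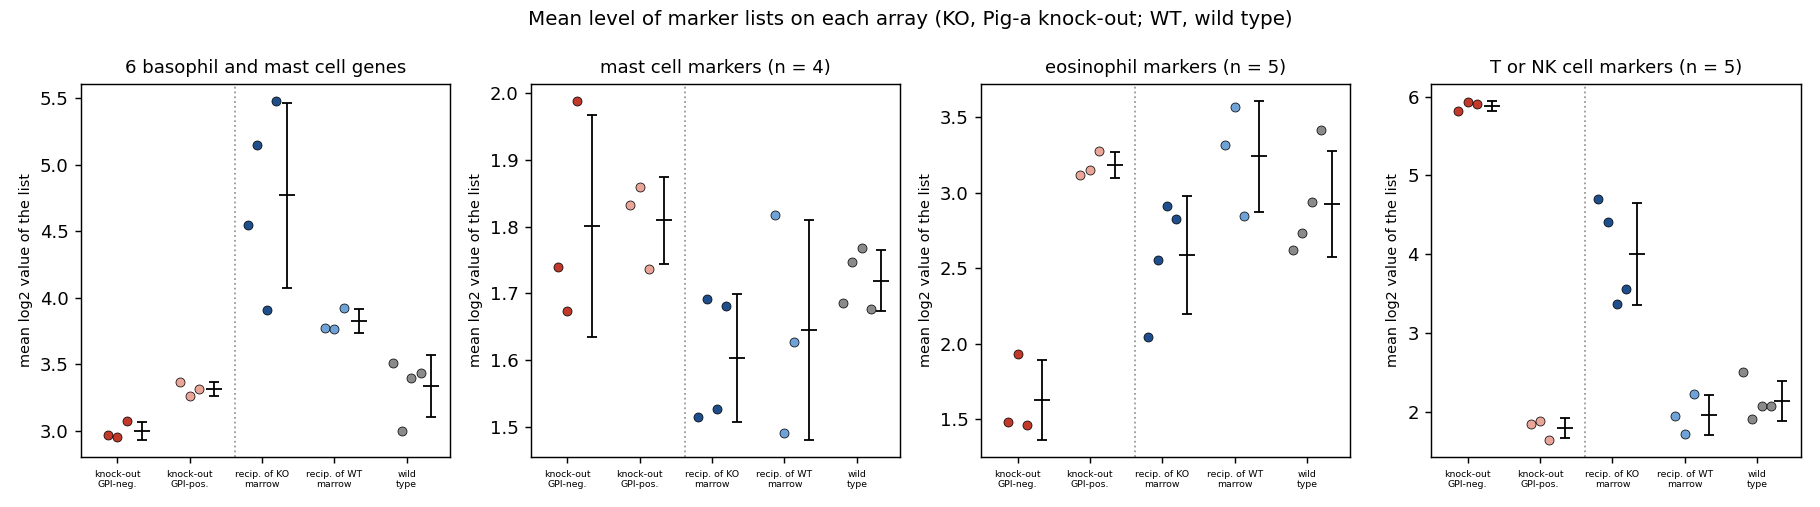
Mean log2 value of the tested genes of each list on each array, by group (recip., recipients; KO, Pig-a knock-out; WT, wild type); bars are mean ± SD. The 6 basophil and mast cell genes are highest in 3 knock-out-marrow recipients, mast cell markers overlap between groups, and T or NK cell markers are highest in both GPI-negative groups, at 5.81 to 5.94 and 3.37 to 4.7.

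Of 12 other transcription factors of the lineage, all tested, 1 rose and 4 fell in knock-out GPI-negative cells, beside 14.8% of all genes in each direction. The median was -0.26, beside -0.01 over all genes. Cebpa, a factor of granulocytes, fell by 0.94 ± 0.19 and Spi1, which encodes PU.1 of myeloid and B cells, by 0.74 ± 0.14. Runx1 and Nfe2 also fell, and Stat5a rose by 0.47. With the GPI-positive arrays averaged into 1, Runx1 (limma adjusted p = 0.0935) and Stat5a (0.15) were not called, and with the mean of its probe sets Stat5a differed by 0.14 (0.539). Between recipients 3 fell and 1 rose, beside 3.45% and 3.95% of all genes. Gfi1b (-1.28 ± 0.21), Tal1 (-0.90 ± 0.19) and Zfpm1 (-0.79 ± 0.16), factors shared with the red cell and platelet lineages, fell. Cebpa was 0.60 ± 0.18 higher (limma adjusted p = 0.0438), a call lost without replicate 2 (0.51), 3 (0.63) or 4 (0.49) of the knock-out-marrow recipients and 2 (0.51) or 3 (0.59) of the wild-type-marrow recipients, at adjusted p = 0.0555 to 0.188. Of 4 erythroid markers 2 (Klf1 and Epor) fell beside these factors, with mean log2 levels of the list of 4.0 to 5.58 and 5.37 to 5.97. Without replicate 3 of the knock-out-marrow recipients (-0.60, limma adjusted p = 0.0593) or replicate 2 (-0.64, 0.0890) or 3 (-0.62, 0.101) of the wild-type-marrow recipients Epor was not called, which left 1. Knock-out-marrow recipients against wild type gave 2 of the 12 higher and 5 lower, beside 6.84% and 5.55% of all genes. Spi1 was among the higher ones (limma adjusted p = 0.0267). It lost its call without replicate 3 (0.36, 0.0810) or 4 (0.35, 0.0991) of those recipients or wild-type replicate 1 (0.41, 0.0563) or 2 (0.36, 0.0886). Gata1, the relative of Gata2 used by red cells, mast cells and eosinophils, was among the lower ones (-0.97 ± 0.26, limma adjusted p = 0.0145). Between recipients Gata1 was not called. Gata1 was no longer called when replicate 3 (-0.83, 0.0539) or 4 (-0.83, 0.0632) of those recipients or wild-type replicate 4 (-0.85, 0.0577) was left out. Wild-type-marrow recipients and wild type differed in 0 of the 12 by limma, with 1 at an unadjusted p under 0.05. Of all genes, 0.449% were called higher and 0.393% lower in that comparison.

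**Figure D4:**
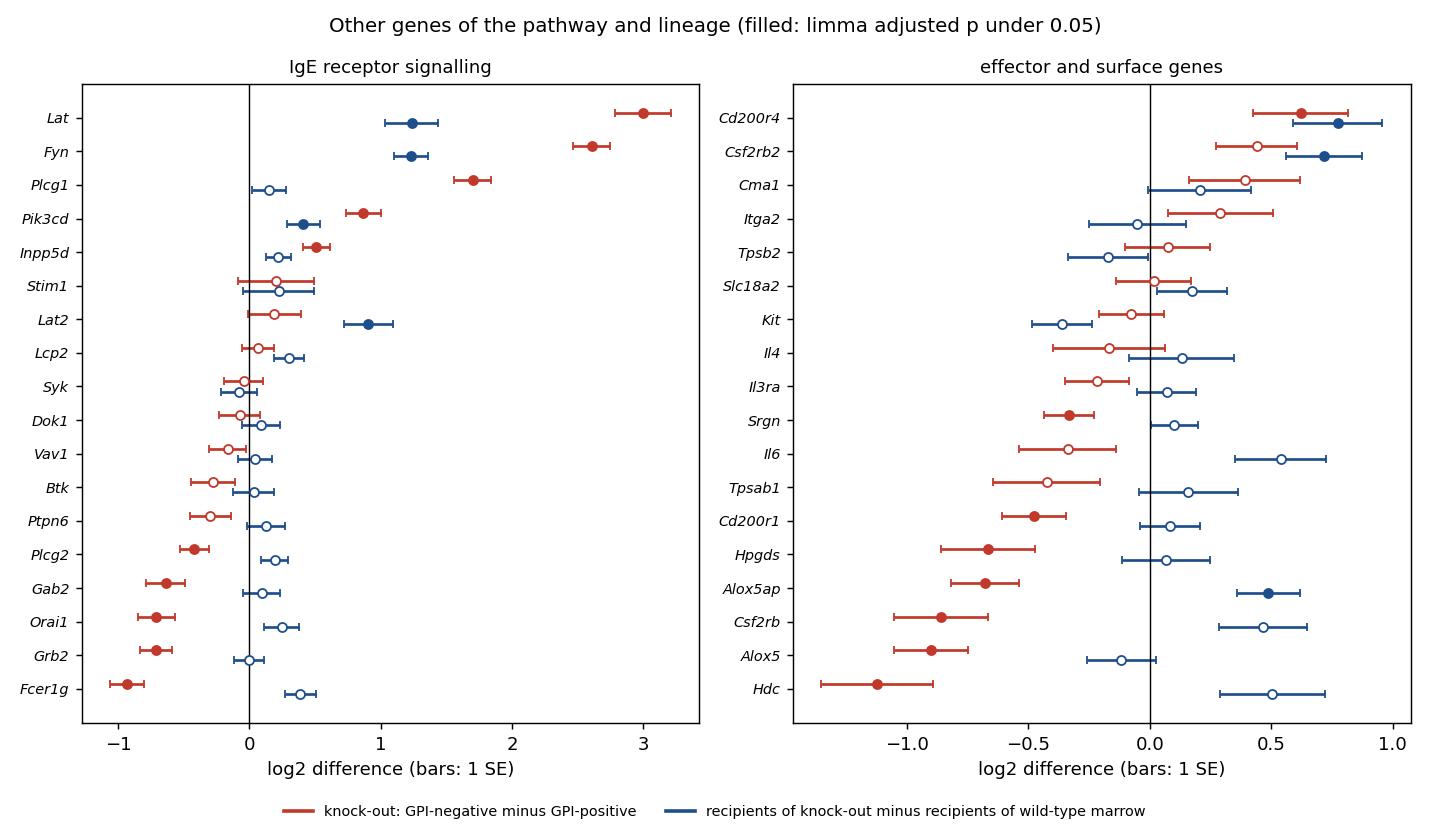
Log2 differences with bars of 1 SE for 18 IgE receptor signalling genes and 18 effector and surface genes, within knock-out mice and between recipients; filled points have a limma adjusted p under 0.05. In knock-out mice Lat and Fyn lie at 3.0 and 2.61 and Hdc at -1.12. Between recipients most points are open, with medians of 0.21 for the signalling and 0.15 for the effector and surface genes, beside -0.01 over all genes.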

How the data were processed

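Total RNA was hybridised to Affymetrix mouse expression arrays. The authors' deposited log10-like values were used; within a batch the sorted values of all arrays were identical, so they had been quantile-normalized per batch. Per the submitters' processing notes GCOS version 12 was involved, its role unstated; the background correction is not known here. Hybridisation controls rose with concentration with slopes of 1.00 ± 0.09 (SD, batch 1) and 1.15 ± 0.04 (batch 2), so folds may be overstated. Values were divided by the log10 of 2, and array medians were centred on a common median. Probe sets had to reach the 40th percentile of an array on 3 or more arrays; the brightest with 1 symbol stood for its gene. limma 3.58.1 (R 4.3.3) fitted 5 group means over 17 arrays with an intensity trend (12 residual degrees of freedom); the Benjamini-Hochberg adjustment ran over 14245 genes, with a threshold of 0.05. The fit was first tried on simulated data. There a gene had the same spread in every group, so the trial cannot show how unequal spread between groups affects the calls. The members of each list and the 6 genes were chosen with earlier results of these data known. Named genes are the members, genes of the lists that passed in any comparison with defining markers of other cell types, and the genes most like the members. The number of arrays limits the precision. Other normalizations, filters, probe set rules, weights, samples in the fit, a replicate block and leaving out each array were tried.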

Additional observations from a re-analysis of the deposited data

Results flagged for a closer look

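The change from GPI-positive to GPI-negative cells differed between knock-out mice and recipients by the interaction test of limma for 4 members. The knock-out difference minus the recipients' difference was -1.78 for Fcer1a (adjusted p = 0.00583), -1.39 for Ms4a2 (0.0123), -1.93 for Mcpt8 and -1.26 for Cpa3 on the log2 scale. The knock-out mice and the recipients lie in different batches and have controls of unlike genotype. Transplantation, aerolysin, irradiation, the genotype of the control and batch cannot be told apart.

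Of 18 sets of 4 arrays examined, 2 held an array far from the other 3, where chance gives about 1 in 20. Wild-type replicate 2 had the lowest Cpa3 value, 1.02 on the deposited scale, with a gap to the nearest array of 0.849 of the range. Wild-type replicate 1 had the highest value of the second Gata2 probe set, 0.741, with a gap of 0.856 of the range.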

How the results depend on the processing

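Of the member differences, Cpa3 and Mcpt8 kept their limma calls and directions between recipients, against wild type and in the interaction under every alternative run; Fcer1a and Ms4a2 did so against wild type. Between recipients Fcer1a (0.85 to 1.5) and Ms4a2 (0.57 to 1.14) each lost the call in 6 of 14 alternatives, and Fcer1a lost it in 10 of 14 between wild-type-marrow recipients and wild type. Within knock-out mice, where 0 members were called, averaging the probe sets of a gene gave 1 and each batch fitted alone gave 3, all lower. Between wild-type-marrow recipients and wild type, where 1 of 6 was called, 0 were called with the mean of probe sets or with each batch alone, and 2 with array weights, which called 353 genes in place of 120. Same-numbered arrays deviated from their group means with correlations of -0.18 to 0.10. With so few arrays a group this does not settle whether replicate numbers pair the arrays. With the replicate block, 2 members were called between recipients, and between wild-type-marrow recipients and wild type 0 members and 45 genes. Against wild type the block gave knock-out-marrow recipients a limma adjusted p of 0.0643 for Il3ra and 0.0591 for Csf2rb, both called without it. With the knock-out GPI-positive arrays averaged into 1, 1652 genes were called within knock-out mice in place of 4206, and 978 genes and 2 members in the interaction in place of 2707 and 4. Leaving out single arrays gave 2 to 6 called members and 680 to 1311 genes between recipients, and 0 members and 21 to 89 genes between wild-type-marrow recipients and wild type. Differences that were not called reversed in 5 cases: Cd200r3 (-0.10 with the mean of probe sets), Ms4a2 (-0.023 without replicate 3 of the wild-type-marrow recipients) and Gata2 (-0.03 without that array and -0.074 without wild-type replicate 2) between wild-type-marrow recipients and wild type, and Gata2 in the interaction (0.0098 without replicate 4 of the knock-out-marrow recipients). Over single arrays left out, these 3 leave-one-out results ranged from -0.023 to 0.30, -0.074 to 0.13 and -0.36 to 0.0098. The cause was not tested. The number of arrays, 3 or 4 a group, limits the precision.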
